A study of Mus musculus with 6 samples.

Results

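The genes described here encode the proteins of the cytosolic ribosome, measured in intestinal stem cells of mice 24 h after treatment with DBZ or vehicle. A gene belongs to the set when a probe set of the array carries its symbol alone and that symbol is Rplp0, Rplp1, Rplp2, Rpsa or an Rpl or Rps number, with or without the endings a, x, l or l1. The set held 48 genes of 18193 with a single-symbol probe set. Where a gene had several such probe sets, the brightest on the log2 scale, averaged across all 6 arrays, stood for it. All 48 were found in the reference gene table under the same symbol. Another 28 symbols that fit the rule occurred only on probe sets shared with further symbols, and have no value of their own here. No member was left out by a filter on low values.

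There were 3 DBZ mice and 3 vehicle (DMSO) mice, and every mouse was of the Lgr5-EGFP-IRES-creERT2 line, in which Lgr5 drives EGFP together with a tamoxifen-dependent Cre recombinase. DBZ inhibits gamma-secretase, the protease that releases the active fragment of Notch receptors. The comparison asks what this inhibition does to expression in the intestine. Cells with high GFP were sorted from the small intestine, so every array holds a sorted mixture from 1 mouse. The labels give neither age nor sex, their description field names DMSO for all 6 arrays against the titles of 3, and their unit of dose is implausible, so groups follow the titles and no dose is given.

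A ribosome carries a single copy of nearly every ribosomal protein, and the acidic stalk proteins are the exception. The small subunit decodes the mRNA, the large subunit forms the peptide bond, and the stalk recruits the translation factors. In vertebrates most of these mRNAs begin with a run of pyrimidines, the 5′ terminal oligopyrimidine tract, through which mTORC1 and Larp1 govern their translation as a group. Crypt stem cells divide fast and are known for a high demand for ribosomes.

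To show the pyrimidine run and its absence, 50 bases around the RefSeq start site (assembly GRCm38.p6) are given for 7 members, from 30 before to 20 after it. Rps6, Rpl35, Rps9 and Rpl27a hold such a run, and Rps26, Rpl37 and Rpl7l1 are the members nearest to the threshold in the comparison below. Capitals mark the longest run of C and T that reaches within 10 bases of the start, where at least 7 of its letters lie in that window.
Rps6 (chr4:86857348-86857397, minus strand): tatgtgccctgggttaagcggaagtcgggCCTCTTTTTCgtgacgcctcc
Rpl35 (chr2:39005112-39005161, minus strand): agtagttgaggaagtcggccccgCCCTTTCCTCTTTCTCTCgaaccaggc
Rps9 (chr7:3704011-3704060, plus strand): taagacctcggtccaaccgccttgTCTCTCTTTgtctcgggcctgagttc
Rpl27a (chr7:109519165-109519214, plus strand): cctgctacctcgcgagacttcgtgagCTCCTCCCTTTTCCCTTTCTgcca
Rps26 (chr10:128626487-128626536, minus strand): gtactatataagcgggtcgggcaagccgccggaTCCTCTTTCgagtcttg
Rpl37 (chr15:5116583-5116632, plus strand): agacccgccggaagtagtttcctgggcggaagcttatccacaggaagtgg
Rpl7l1 (chr17:46782637-46782686, minus strand): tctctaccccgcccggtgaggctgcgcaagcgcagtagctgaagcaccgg

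RefSeq start windows, of 250 bases before to 50 after the start, were matched for 42 of the 48 members. A run of at least 7 C or T letters within 10 bases of the start on the strand of the gene was held by 20 of the 42 (47.6%), against 14.2% of 27025 genes with such a window. A C at the annotated start followed by 4 pyrimidines was held by 8 of the 42 (19.0%), against 3.0% of all. The letters CCGGAA, searched on both strands over the whole window, occurred in 27 members (64.3%, against 16.7% of all), AAGATGG in 8 (19.0%, against 7.3%), GGGCGG in 24 (57.1%, against 38.2%) and TATAAA in 6 (14.3%, against 15.7%). These shares describe letters in the window, and annotated starts can lie some bases from the start in use.

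None of the 48 ribosomal protein genes passed the test of DBZ against vehicle, in either direction (limma on log2(intensity + 16), Benjamini-Hochberg adjusted over all 18193 genes, threshold 0.05). Over all genes 5.34% passed. Log2 differences, DBZ minus vehicle on this scale, ran from -0.43 for Rps4l to 0.38 for Rpl12, with a median of -0.04 over the members and of -0.02 over all genes. At an unadjusted p under 0.05 in the same limma fit, 6 of 48 members passed (12.5%), against 26.3% of all genes. Of these 5 were lower in DBZ mice (all genes 11.3%) and 1 was higher (all genes 15.1%). For 44 of 48 members (91.7%) the 95% interval of the difference lay within 1.5-fold either way, against 73.6% of all genes. The median member's interval reached 0.17 on either side of its difference, against 0.23 for all genes. Among genes above 6000 units, where most members lay, 34 of 34 members were within 1.5-fold, against 62.3% of 207 other genes.

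Rpl37, Rpl27a, Rpl12 and Rps4l are the members whose intervals reached beyond 1.5-fold. Rpl27a had 205, 231 and 232 intensity units in DBZ mice and 457, 246 and 223 in vehicle mice, so vehicle replicate 1 alone was high. Rpl12, whose protein sits at the base of the stalk, had 164, 233 and 257 in DBZ mice and 130, 176 and 184 in vehicle mice, and the groups overlapped. Rps4l, a relative of Rps4x, had 804, 473 and 503 in DBZ mice and 604, 806 and 980 in vehicle mice. In Rps4l too the groups overlapped. All 4 belong to the 14 members whose probe sets averaged below 6000 units.

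**Figure D1:**
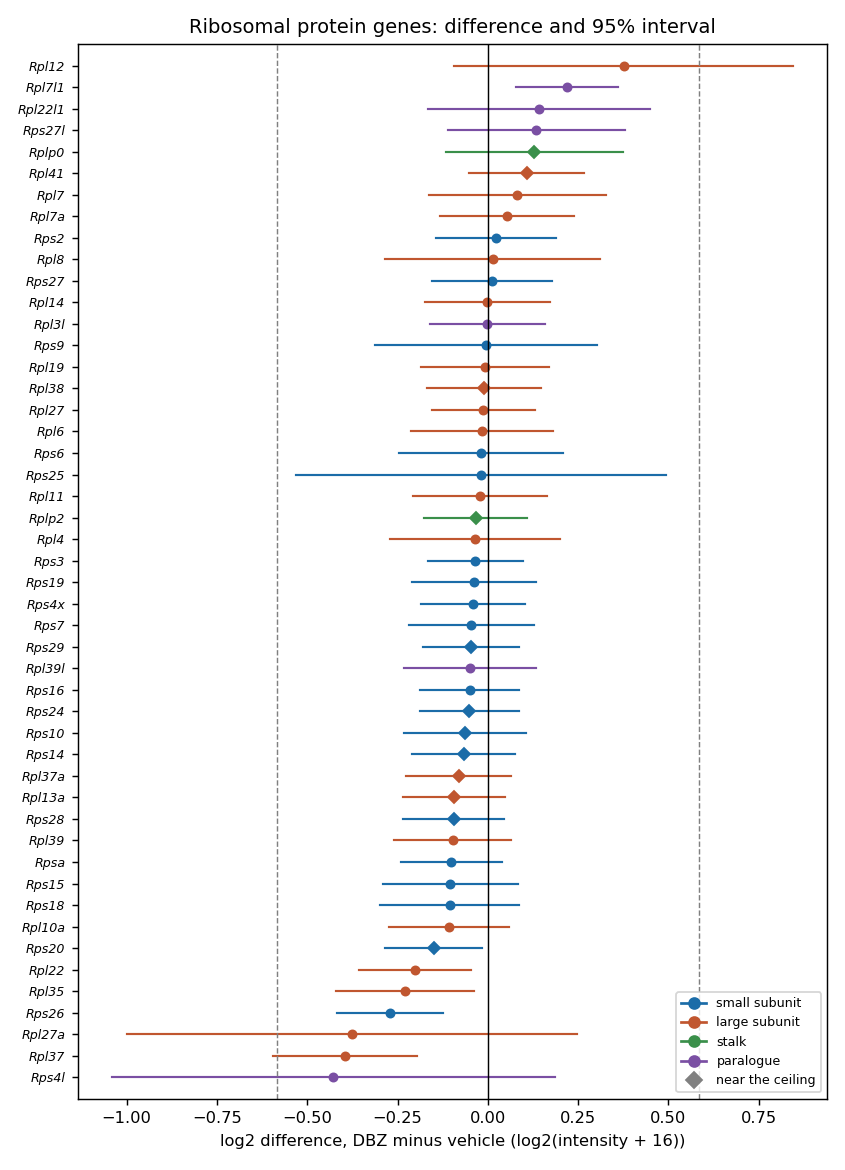
Log2 difference (DBZ minus vehicle, horizontal axis) with its 95% interval from the fit over all genes for each of the 48 members (rows), coloured by role, with diamonds for genes near the intensity ceiling. Dashed lines mark 1.5-fold either way, and 44 of 48 intervals lie between them.

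Differences were small but mostly below 0. Of the 48 members 37 were lower in DBZ mice (77.1%), against 54.6% of all genes. Groups did not overlap for 12 members (25%), against 33.2% of all genes. Of these, 10 were lower in every DBZ mouse than in any vehicle mouse (all genes 15.8%), and 2 were higher (all genes 17.3%). The count of 37 was 39 without vehicle replicate 1 and 27 without vehicle replicate 2, and the median difference was -0.07 and -0.01 in those fits. The lean towards lower values was thus smaller without vehicle replicate 2.

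The member closest to the threshold was Rpl37, which encodes a zinc-binding protein of the large subunit. It had 844, 976 and 931 units in DBZ mice and 1277, 1229 and 1126 in vehicle mice. Every DBZ value lay below every vehicle value. The log2 difference was -0.40 ± 0.08 (SE, n = 3 each; limma, Benjamini-Hochberg adjusted p = 0.0503). Its single probe set is of the type that can match other transcripts, and its adjusted p ranged from 0.0419 to 0.142 over the alternatives (limma).

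Rps26, a small subunit protein at the exit of the mRNA channel and a Diamond-Blackfan anaemia gene in humans, had 12009, 11683 and 11415 units in DBZ mice. It had 14540, 14407 and 13453 in vehicle mice, again without overlap. The difference was -0.27 ± 0.06 (SE, n = 3 each; limma, Benjamini-Hochberg adjusted p = 0.057, range over the alternatives 0.0371 to 0.156). Rpl35, which lies beside the exit of the nascent chain, had 10317, 10980 and 10642 units in DBZ mice and 13764, 11953 and 11823 in vehicle mice. Its difference was -0.23 (limma, adjusted p = 0.134), and its 4 other bright probe sets gave -0.27, -0.16, -0.23 and -0.28. Its sixth probe set, at a mean of 72.4 units, read 0.10. The 5 bright probe sets gave like differences and the dim one the opposite sign. Most of the bright ones, the one used among them, are of the type that can match other transcripts, and the dim one is not.

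Rpl22, an RNA-binding protein of the large subunit surface, had 11313, 10797 and 10483 units in DBZ mice and 12754, 12878 and 11873 in vehicle mice. Its difference was -0.20 ± 0.06 (SE, n = 3 each; limma, Benjamini-Hochberg adjusted p = 0.117), with -0.23 and -0.58 from its other probe sets. Rps20 of the small subunit had 13619, 13611 and 14335 in DBZ mice and 15604, 15187 and 15320 in vehicle mice, a difference of -0.15 (limma, adjusted p = 0.154). In both genes the groups stood apart, and neither passed over all genes. The probe sets used for both are of the type that can match other transcripts. The Rpl22 probe set that gave -0.23 is not of this type.

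Of the 6 members with an unadjusted p under 0.05, Rpl7l1 was the single one that was higher in DBZ mice. It encodes a nucleolar relative of Rpl7 that is known for its part in large subunit assembly. It had 469, 485 and 487 units in DBZ mice and 412, 394 and 425 in vehicle mice. The difference was 0.22 ± 0.06 (SE, n = 3 each; limma, Benjamini-Hochberg adjusted p = 0.0788). Its other 2 probe sets gave 0.49 and 0.29, so the size depended on the probe set while the sign did not.

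**Figure D2:**
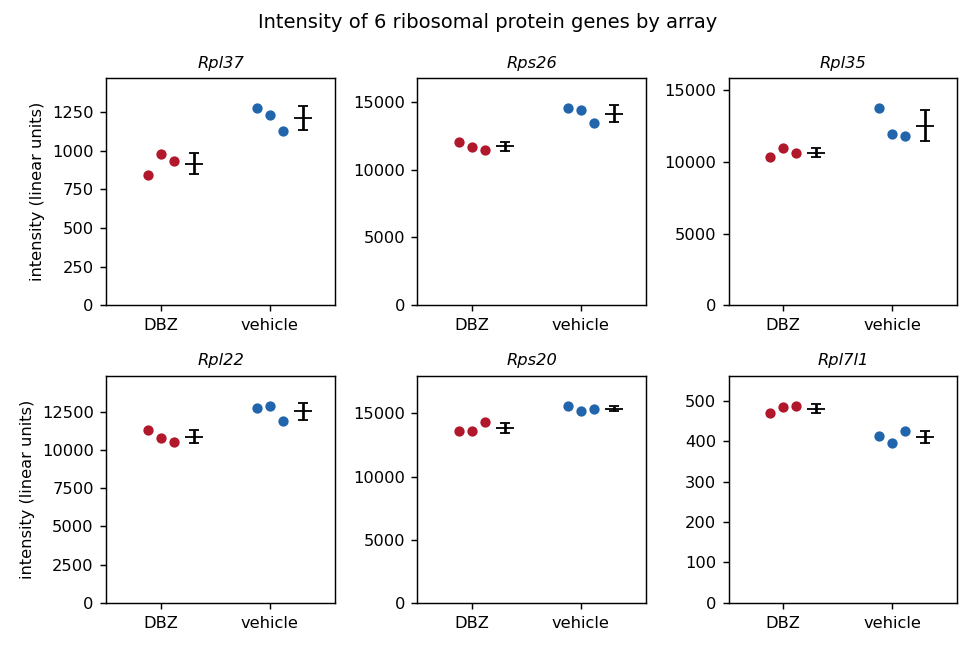
Intensity in linear units (vertical axes from 0) of the 6 members with an unadjusted p under 0.05, with 1 point per mouse and the mean with SD as bars beside the points (n = 3). DBZ mice lie below vehicle mice without overlap for Rpl37, Rps26, Rpl35, Rpl22 and Rps20, and above them for Rpl7l1.

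Among stalk proteins, Rplp0, the scaffold of the stalk and a common reference gene, had 15789, 15230 and 16032 units in DBZ mice and 12378, 15335 and 15537 in vehicle mice. The low value was that of vehicle replicate 1, and the difference was 0.13 with an interval of -0.12 to 0.37. Rplp2, an acidic stalk protein, had 15809, 15847 and 15811 in DBZ mice and 15388, 16719 and 16526 in vehicle mice, a difference of -0.03 with an interval of -0.18 to 0.11. Rplp1 has no value of its own here.

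The 20 small subunit genes had a median difference of -0.05, with 18 below 0, and all 20 intervals lay within 1.5-fold. Rpsa, which also acts as a laminin receptor, had 11407, 11515 and 11702 units in DBZ mice and 12797, 12512 and 11837 in vehicle mice. The groups stood apart with an interval of -0.24 to 0.04. Rps19, the gene most often mutated in human Diamond-Blackfan anaemia, had 9249, 8941 and 9108 in DBZ mice and 8635, 9933 and 9515 in vehicle mice, with an interval of -0.21 to 0.13.

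Rps6, the substrate of the S6 kinases downstream of mTORC1, had 575, 610 and 665 units in DBZ mice and 590, 696 and 591 in vehicle mice. Rps25, needed for initiation at some viral and cellular internal entry sites, had 318, 340 and 425 in DBZ mice and 501, 318 and 300 in vehicle mice. Their groups overlapped, and the interval of Rps25, -0.53 to 0.49, was among the widest. The values of Rps16 lay between 9.96 and 10.4 in DBZ mice and between 10.4 and 12.2 in vehicle mice, below the median of each array. Rps16 is 1 of the 10 members that were lower in every DBZ mouse, at an intensity where a signal may not be that of the mRNA.

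The 20 large subunit genes outside the stalk had a median difference of -0.02, with 15 below 0. Rpl11, which with Rpl5 and 5S RNA can bind Mdm2, had 9241, 9988 and 9891 units in DBZ mice and 9150, 10625 and 9846 in vehicle mice. Rpl38, known in mice for its part in translating Hox mRNAs, had 14980, 15754 and 15826 in DBZ mice and 16448, 15694 and 14772 in vehicle mice. Neither gene differed beyond the spread between mice, with intervals of -0.21 to 0.16 for Rpl11 and -0.17 to 0.15 for Rpl38. Rpl41, the smallest ribosomal protein, had 19190, 20323 and 20835 in DBZ mice and 19171, 19175 and 17674 in vehicle mice, a difference of 0.11 (limma, Benjamini-Hochberg adjusted p = 0.355).

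The 6 related genes outside the core set had no common sign, with 3 above and 3 below 0 and none past the threshold. Rpl3l, of heart and skeletal muscle, had 17.4, 19.2 and 16.9 units in DBZ mice and 17.2, 19.9 and 16.6 in vehicle mice. Rpl39l, known from testis, had a difference of -0.05 with an interval of -0.23 to 0.13. Both lay below the array median on all 6 arrays.

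Rpl22l1, which in mice is held in check by Rpl22, had 4103, 4685 and 5630 units in DBZ mice and 3989, 4585 and 4402 in vehicle mice. Rps27l, a p53 target, had 6041, 7469 and 7642 in DBZ mice and 6241, 6451 and 6481 in vehicle mice. In both genes, on the probe sets used, DBZ replicates 2 and 3 lay above all vehicle mice and DBZ replicate 1 did not. The other probe sets of Rps27l read 0.27 and 0.13. On the former every DBZ mouse (5755, 6870 and 6825) lay above every vehicle mouse (5291, 5607 and 5196). On the latter the groups overlapped.

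Taken within each mouse, the log2 value of Rpl22l1 minus that of Rpl22 was -1.46, -1.20 and -0.90 in DBZ mice and -1.67, -1.49 and -1.43 in vehicle mice. The ratio itself sets different probe sets against each other and has no meaning, and the groups differed in it by 0.34 (exact permutation test, two-sided, p = 0.2, or 0.5 adjusted over 5 pairs). The other pairs gave 0.14 for Rpl7l1 and Rpl7, 0.05 for Rpl39l and Rpl39, 0.12 for Rps27l and Rps27 and -0.39 for Rps4l and Rps4x. All 5 overlapped between groups, and this design of 3 against 3 cannot give an exact p below 0.1. The pairs were tested after the values had been seen. The partners Rpl39 and Rps27 lay at 72.2 to 87.6 and 97.9 to 112 units over the 6 arrays, far below most members.

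The array itself limits these values at the bright end. The brightest probe set of each array read between 27330 and 29871 units, and 12 members averaged at least 13665 units, the lowest such maximum divided by 2. The brightest were Rps29 (19011 to 19299 in DBZ mice and 19177 to 20419 in vehicle mice), Rpl41, Rpl37a (16119 to 16577 in DBZ mice and 16618 to 18181 in vehicle mice) and Rps28 (15787 to 16351 in DBZ mice and 16498 to 17749 in vehicle mice). Near a ceiling a difference can read smaller than it is. The 12 had a median difference of -0.06, against -0.03 for the other 36. Of all 59 genes near the ceiling 3 passed the test, all higher in DBZ mice, and the differences of the 59 ran from -1.10 to 0.70.

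Probe sets of the same gene mostly gave the same sign. The 48 genes had 104 single-symbol probe sets, and 24 genes had more than 1. Of these 24, 6 had probe sets of opposite sign, and no probe set of any member passed the threshold in a limma fit over 34945 probe sets, where 2.87% passed and 0.747% passed as lower. At an unadjusted p under 0.05 it was 25 of 104, against 23.5% of all. Groups did not overlap for 30 of 104 as lower (28.8%, against 14.6% of all) and for 8 as higher (all 15.8%). Among 18 genes with several probe sets averaging at least 1000 units, all bright probe sets were negative in 13 and positive in 3. In 14 of the 18 the other bright probe sets had a more negative median than the brightest. Rpl27, for instance, read -0.01 from the brightest and -0.18 and -0.23 from its dimmer probe sets, Rps15 read -0.10 and -0.24, and Rps9 read -0.01 and -0.37. The cause of this order was not tested.

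Most probe sets shared between a ribosomal protein gene and other symbols were also lower. Of 110 such probe sets, 88 were lower in DBZ mice, with a median difference of -0.10 and a range of -0.47 to 0.30. In 51 (46.4%) every DBZ mouse lay below every vehicle mouse, against 14.7% of all 35877 probe sets in this fit. In 3 (2.73%) every DBZ mouse lay above, against 15.8% of all. A single one passed the threshold, lower in DBZ mice (limma, Benjamini-Hochberg adjusted p = 0.0483; all probe sets 2.7%, or 0.73% as lower). At an unadjusted p under 0.05, 34 were lower, against 10.2% of all. Their values cannot be given to a gene, and probe sets that list the same symbol are not independent of each other.

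**Figure D3:**
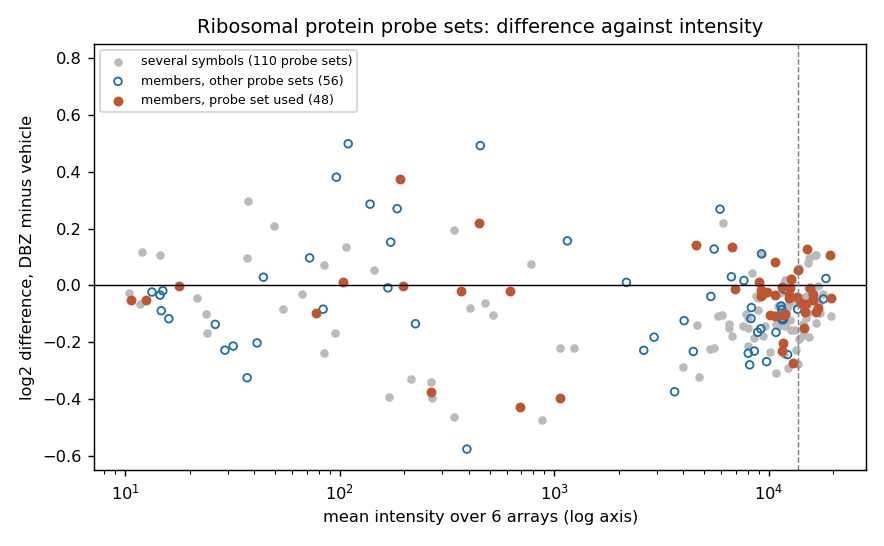
Log2 difference (DBZ minus vehicle, vertical axis) against mean intensity over the 6 arrays (horizontal log axis) for the 48 probe sets used, the 56 other probe sets of the same genes and 110 probe sets with several symbols. The dashed line marks 13665 units, and of the points above 6000 units 27 of 34 used probe sets and 62 of 74 with several symbols lie below 0.

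The arrays differed more among vehicle than among DBZ mice in these genes. The spread between the lowest and highest vehicle mouse exceeded that between DBZ mice for 41 of 48 members (85.4%), against 48.1% of all genes. The median range was 0.08 in DBZ mice and 0.18 in vehicle mice for the members, and 0.20 in each group for all genes. Rpl4 of the large subunit had 12196, 12185 and 12199 units in DBZ mice, against 10830, 13580 and 13252 in vehicle mice. Rpl8, also of the large subunit, had 8770, 9413 and 8929 in DBZ mice, against 7481, 10302 and 9295 in vehicle mice.

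In Rpl4 and Rpl8 vehicle replicate 1 was low and vehicle replicate 2 high. Of the 48 members 26 had their highest value in vehicle replicate 2. Vehicle replicate 1 held the lowest value of 17 members and the highest of 12, and the 12 include Rpl37, Rps26, Rpl35 and Rps20. The median deviation of members from their mean over arrays was -0.03, -0.02 and -0.02 in DBZ mice 1, 2 and 3 and -0.04, 0.09 and 0.01 in vehicle mice 1, 2 and 3. For 207 other genes above 6000 units it was 0.06, 0.01 and -0.06 in DBZ mice and -0.05, 0.02 and 0.03 in vehicle mice. The summed intensity of the members averaged 436555 ± 3421 in DBZ mice and 451028 ± 18496 in vehicle mice (SD, n = 3 each), and vehicle replicate 1 at 433376 lay within 1 SD of the DBZ mean.

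The actin control probes give a sign of RNA integrity. Their ratio of 3′ to 5′ signal was 1.53, 1.51 and 1.57 in DBZ mice and 2.22, 1.61 and 1.69 in vehicle mice, so every vehicle ratio exceeded every DBZ ratio and that of vehicle replicate 1 was the highest. Vehicle replicate 2, which had the highest member median, lay between the DBZ mice and vehicle replicate 3. The Gapdh ratio was 1.05, 1.09 and 1.08 in DBZ mice and 1.42, 1.11 and 1.07 in vehicle mice. The part of these ratios in the ribosomal protein values was not tested. Leaving out each array gave 0 members past the threshold each time. The main fit also had 0, so these fits cannot decide the question.

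**Figure D4:**
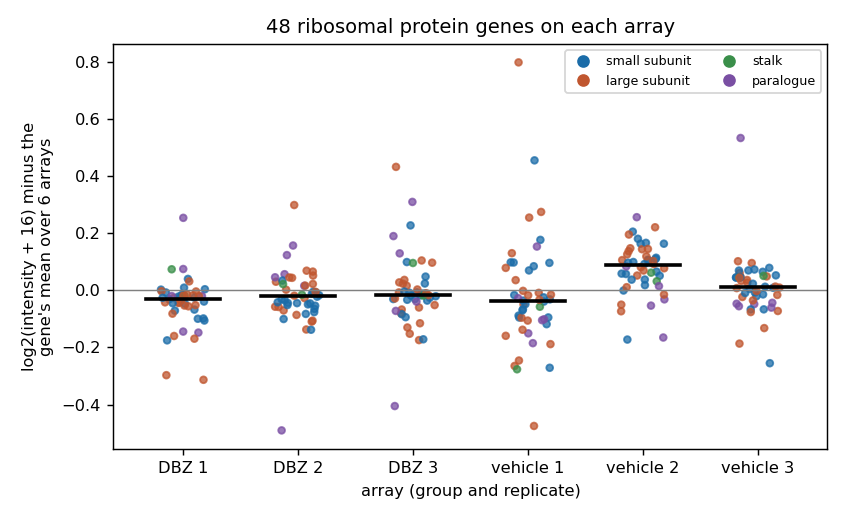
Deviation of each of the 48 members from its own mean over the 6 arrays (vertical axis, log2(intensity + 16)), 1 column of points per array, with the median as a black bar. The 3 DBZ medians lie between -0.03 and -0.02 and the vehicle medians between -0.04 and 0.09.

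The cells were checked against marker lists. Of 8 crypt base stem cell genes 2 fell and 1 rose (all genes 1.52% and 3.82%), and 4 were above 0. Their sum was 7690 to 8354 in DBZ mice and 9307 to 11707 in vehicle mice. Ascl2 fell by 1.03 and Sox9 rose by 0.72 (limma, Benjamini-Hochberg adjusted p = 0.0248 and 0.027), while Slc12a2 at 0.43 and Tnfrsf19 at 0.41 were higher without overlap and did not pass. Olfm4, a crypt stem cell marker known as a Notch target, fell to 35.9, 18.6 and 29.9 units in DBZ mice, against 3627, 4234 and 5177 in vehicle mice. The lower stem cell sum in DBZ mice rests on Olfm4. The largest other term, Slc12a2, had 6407, 6650 and 6146 units in DBZ mice and 4232, 5448 and 4665 in vehicle mice. Lgr5 had 242, 209 and 239 units in DBZ mice and 204, 260 and 271 in vehicle mice, and the epithelial gene Epcam lay between 17187 and 19609 in DBZ mice and between 16997 and 19018 in vehicle mice. Of 10 fibroblast and smooth muscle genes 6 passed the threshold, all higher (all genes 3.82%). Their summed levels were 41725 to 48900 in DBZ mice and 19394 to 28522 in vehicle mice. Those of 5 measured adipocyte genes were 5095 to 12125 in DBZ mice and 1424 to 3091 in vehicle mice, and those of 7 goblet genes were 118915 to 143460 in DBZ mice and 94815 to 104295 in vehicle mice. Sums of 7 macrophage and neutrophil genes were 5483 to 13196 in DBZ mice and 5237 to 6381 in vehicle mice. Those of 7 enteroendocrine genes, all 7 above 0, were 3912 to 8656 in DBZ mice and 2114 to 2631 in vehicle mice. Those of 6 endothelial genes were 1074 to 1274 in DBZ mice and 833 to 898 in vehicle mice. Those of 5 tuft genes were 444 to 871 in DBZ mice and 369 to 428 in vehicle mice. Genes past the threshold, all higher, were 3 of 7 goblet, 3 of 7 enteroendocrine, 2 of 5 adipocyte and 1 of 6 endothelial genes. No tuft, epithelial or T and B cell gene passed. Sums of 6 measured enterocyte genes were lower without overlap, at 45286 to 52765 in DBZ mice and 53422 to 57138 in vehicle mice. All 6 were below 0 and none passed. Most of each sum came from Fabp2 at -0.04 and Apoa1 at -0.19, both near the ceiling and overlapping between groups. The macrophage and neutrophil sums overlapped between groups, as did the epithelial, the Paneth and the T and B cell sums. Sums weigh bright genes most. Of the 7 macrophage and neutrophil genes 6 were above 0, and 2 passed as higher (all genes 3.82%). These were S100a8, at 1486, 308 and 2746 units in DBZ mice against 16.9, 17.0 and 24.0 in vehicle mice, and S100a9. Of 6 Paneth genes 2 were above 0, Mmp7 at 1.37 and Pla2g2a at 2.18, and both passed as higher. Ang4 at -2.70, Mptx1 at -2.25 and Lyz1 at -0.30 were lower without overlap and did not pass. The part of these cell types in the ribosomal protein values was not tested. In such mixtures fewer cells of a type and less RNA per cell cannot be told apart.

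Other genes of translation, taken from lists by role, were set beside the ribosomal proteins. Among 40 measured ribosome biogenesis factors 1 rose and 0 fell (all genes 3.82% and 1.52%), 28 were above 0 and the median was 0.19. The gene that rose was Tsr1, needed for late small subunit maturation, with 627, 903 and 841 units in DBZ mice and 408, 463 and 467 in vehicle mice. Its difference was 0.79 ± 0.14 (SE, n = 3 each; limma, Benjamini-Hochberg adjusted p = 0.041). It lost its call with a pseudocount of 64 and with the mean of its probe sets (limma, adjusted p = 0.0616 and 0.0714). The probe set used for Tsr1 is of the type that can match other transcripts. Initiation factors kept on a separate list from terminal pyrimidine factors were above 0 in 20 of 22 cases. Their median was 0.23, with 0 past the threshold (limma). At an unadjusted p under 0.05 in the same fit 10 passed, all higher (45.5%, against 15.1% of all genes). Which factors have a terminal pyrimidine tract was taken from the lists and not checked at their start sites. Eif2b3 and Eif2b1, parts of the exchange factor of eIF2, were at 0.78 ± 0.17 and 0.62 ± 0.15 (SE, n = 3 each; limma, adjusted p = 0.0526 and 0.0711).

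Translation factors listed as having a terminal pyrimidine tract had a median of -0.08, and 1 of 16 fell (all genes 1.52%). That gene was Eif3e, a subunit of eIF3, with 3536, 3491 and 3332 units in DBZ mice and 4378, 4630 and 4609 in vehicle mice (-0.39 ± 0.06, SE; limma, Benjamini-Hochberg adjusted p = 0.0291). Its probe set is of the type that can match other transcripts, and without such probe sets Eif3e read -0.17 (limma, adjusted p = 0.399). The elongation factor genes Eef1a1 and Eef2 were at 0.06 with an interval of -0.11 to 0.23 and at -0.10 with an interval of -0.31 to 0.11.

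Of 76 mitochondrial ribosomal protein genes 2 fell and 0 rose (all genes 1.52% and 3.82%), with a median of -0.06. Of the 76, 20 were lower without overlap (26.3%, against 15.8% of all genes). The 2 that fell past the threshold were Mrps9 and Mrps6. Mrps9 had 368, 361 and 334 units in DBZ mice and 530, 487 and 513 in vehicle mice. Mrps6 had 390, 415 and 350 in DBZ mice and 556, 540 and 510 in vehicle mice. Both belong to the small subunit of the mitochondrial ribosome (limma, Benjamini-Hochberg adjusted p = 0.0252 and 0.0371). Without probe sets that can match other transcripts Mrps6 read -0.30 (limma, adjusted p = 0.12).

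Among 18 measured genes of RNA polymerase I and 5S transcription, Taf1d, a subunit of the selectivity factor of polymerase I, fell to 374, 407 and 395 units in DBZ mice, against 582, 538 and 553 in vehicle mice (limma, Benjamini-Hochberg adjusted p = 0.0248). With the mean of its probe sets Taf1d read -0.18 (limma, adjusted p = 0.14). Among 17 regulators of growth and of these mRNAs, Eif4ebp2, which restrains eIF4E, fell by 0.39 (limma, adjusted p = 0.0492). With the mean of its probe sets it read -0.15 (limma, adjusted p = 0.267), and it lost its call with quantile normalization, median centring and either other pseudocount. Taf1d and Eif4ebp2 were the only genes of their lists past the threshold, and over all genes 1.52% fell. Myc was at -0.01 with an interval of -0.44 to 0.43. Mycn was at -0.53, lower without overlap (limma, adjusted p = 0.113). Of the 17 regulators 9 were above 0 and 8 below. Of 8 ribosome-linked genes outside the rule none passed (limma). At an unadjusted p under 0.05 in that fit it was 2, or 25%, against 26.3% of all genes. Fau, which encodes a small subunit protein fused to a ubiquitin-like part, had 14682, 13513 and 12298 units in DBZ mice and 15980, 16637 and 15463 in vehicle mice. Mdm2 was at 0.36 ± 0.13 (SE, n = 3 each; limma, adjusted p = 0.144). These 6 calls among the lists depended on single arrays. Their number was 0 without DBZ replicate 2 or any of the vehicle replicates, 2 without DBZ replicate 3 and 26 without DBZ replicate 1.

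**Figure D5:**
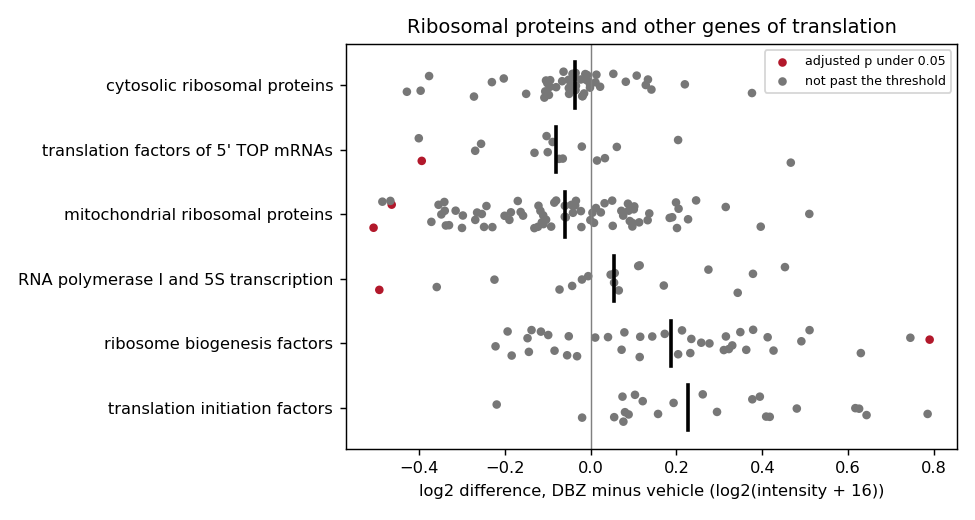
Log2 difference (DBZ minus vehicle, horizontal axis) of each gene in the set of cytosolic ribosomal proteins and in 5 other lists of translation genes (rows), with medians as black bars and genes past the threshold in red. The ribosomal protein median is -0.04, and those of the lists run from -0.08 to 0.23.

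Across the 6 mice the genes most like the members' median profile, among 9053 genes outside the set above the median gene, were Ndrg2, Mea1, Cobll1, Tmem30b and Pgap4. Their Pearson correlations with it were 0.984, 0.982, 0.977, 0.976 and 0.976, over 6 arrays that share their scaling. They were picked for likeness to a profile in which the groups overlap, so they were unlikely to pass the test. None of the 5 did, with adjusted p from 0.354 to 0.666 (limma), which says nothing further about them. The 20 members with a pyrimidine run at the start had a median difference of -0.03, with 15 below 0. The 22 without one had a median of -0.04, with 18 below 0.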

How the data were processed

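RNA of the sorted cells was hybridised to Affymetrix arrays after amplification from the 3′ end with biotin labelling, per the labels' protocols. The authors' deposited values are linear probe set intensities, already on a common level, so a change shared by all genes cannot be seen. The software that made them is not given in the sources used here. No detection calls were used. Of 45101 probe sets, 34945 had a single symbol outside the controls, 932 several and 9160 none. Values were tested as log2(intensity + 16), which understates differences of dim genes, with limma 3.58.1 in R 4.3.3 (lmFit, eBayes, two-sided). Array medians of these log2 values differed by 0.03, so nothing was normalized again. SE and 95% intervals are the fit's, SD is over 3 mice. The number of arrays limits the precision. Scripts were tested on simulated data.

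The members and lists were chosen with earlier results of these data known. The naming rule covers every member past the threshold, the 6 highest and 6 lowest differences, related genes with partners, 11 well-known members, the 4 brightest and the leading genes of each list. Rps20, Rps9, Rps15, Rps16, Rpl27, Rpl4, Rpl8, Eef1a1, Eef2, Myc and Mycn were named after their values were seen. Protein sequences were not used here.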

Additional observations from a re-analysis of the deposited data

How the results depend on the processing

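With 1 array left out an arm of 2 mice shares the spread of the other arm. Under 17 alternatives the median difference of the members stayed below 0, from -0.04 to -0.03 with another scaling, pseudocount, filter, probe set rule, variance model, array weights or block, and from -0.07 to -0.01 without 1 array. The number of members past the threshold was 0 with median centring, a pseudocount of 1, the trend and robust model, probe sets away from the ceiling, no _x_at and _s_at probe sets and the replicate block, and 0 to 0 without 1 array. It was 1 with quantile normalization (Rpl37), 1 with a pseudocount of 64 (Rps26), 1 with the filter on dim genes (Rpl37), 2 with the mean of each gene's probe sets (Rpl37 and Rps26) and 3 with array weights (Rpl37, Rps26 and Rpl7l1). Of 465 values of named members, 8 gained a call and 25 changed sign without a call, in 9 genes such as Rpl3l, Rps27 and Rps25. Rpl7l1 read 0.44 with quantile normalization and 0.44 with a pseudocount of 64, which change the probe set used. Changed genes over the whole array numbered 972, or 440 with a pseudocount of 64, 2690 with array weights and 19 to 2032 without 1 array. Calls among the translation lists numbered 6, or 3 with the mean of probe sets, 3 without _x_at and _s_at probe sets, 26 with array weights and 0 to 26 without 1 array. The share of members with a pyrimidine run, 47.6%, was 19.0% with the stricter definition, which asks for a C at the start itself. Several-symbol probe sets, added after seeing the data, gave 0 to 10 calls. The replicate block left 889 changed genes and 0 members. Deviations of same-numbered mice correlated at -0.01, 0.25 and 0.20, so the numbers were not taken to pair the mice. The cause of these shifts was not tested. Differences near the ceiling, and those of probe sets below the array median, are limited by the range of the array.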
